A study of Mus musculus with 28 samples.

Results

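The *Hox* cluster genes were examined in mouse embryonic stem cells (mESCs) of the E14 line, for their transcripts on chromatin, for binding of the FACT subunits SSRP1 and SUPT16, and for their response to *Ssrp1* knock-down (KD). Genes were taken where the count table of chromatin RNA gives the symbol *Hoxa*, *Hoxb*, *Hoxc* or *Hoxd* followed by a number, and where the gene also has a row in the RNA-seq file of values per library, in the table of *Ssrp1* KD against control, in the table of neuronal precursor cells (NPCs) against mESCs, or in the peak lists. Of 38 *Hox* genes described here, among the 27179 genes of the count table, 17 met this rule (44.7%). The other 21 had chromatin RNA counts only and are given beside them.

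*Hox* genes encode homeodomain transcription factors that give segments along the body axis their identity. In the mouse they lie in 4 clusters, and the members at the same place of each cluster are paralogues with a shared number. Low numbers are expressed early and in anterior segments, high numbers late and in posterior ones, and retinoic acid (RA) switches on the low-numbered end first. In ES cells the clusters are a textbook case of chromatin held silent by Polycomb proteins with an active mark at the same promoters. FACT is a histone chaperone of the subunits SSRP1 and SUPT16 that reorganizes nucleosomes during transcription. Paralogues 1 to 3 are called anterior here, 4 to 8 central, and 9 to 13 posterior.

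The mESCs were kept on gelatin with serum and leukaemia inhibitory factor (LIF), and nothing in the labels gives a genotype beyond the line. Control cells received lentiviral vectors with a scramble shRNA, and KD cells a pair of shRNAs against *Ssrp1*. Both were selected from 48 h after transfection with puromycin (2 μg/ml) for 24 h. The values per library are those of 4 control and 4 KD libraries with spike-in RNA. NPCs (3 libraries) came from embryoid bodies that received RA (1 μM) during 4 d and were then held for 3 d without LIF. Chromatin RNA was sequenced from 2 libraries of mESCs with no treatment in the labels, and each ChIP-seq list was called on the replicates of a subunit together.

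In the file of values per library, 15384 genes have a value scaled to library size, and whole reads could be recovered from all of them (100% of values within 0.1 read). The recovered reads were 4602278 to 6680919 in the control libraries and 9433193 to 19856032 in the KD libraries, so depth and condition cannot be told apart and low values are less precise in control. *Ssrp1* itself lay between 223 and 261 in control and between 24.1 and 28.9 in KD, while *Supt16* had 319 ± 22.0 (SD, n = 4) and 504 ± 20.2, a log2 fold change of 0.66, short of the fold threshold. These are RNA values, and the paper reports from mass spectrometry that the SUPT16 protein was depleted together with SSRP1. Marker lists moved with the condition, and are read beside the 20.6% of all genes that were called lower and the 8.07% called higher (limma, absolute log2 fold change above 1 and adjusted p below 0.01), or the 50.8% called lower among genes of a mean between 2.32 and 9.38. All 8 markers of ES cells had a value, 5 were called higher and 0 lower (0 lower also at an unadjusted p below 0.05 and with edgeR or DESeq2, and 0 called in either direction after quantile normalization), and their sum was 1558 to 1670 in control and 4066 to 4440 in KD. With spike-in scaled values all 8 were called higher, as were 7394 of all 15384 genes. The 3 of 4 listed endoderm markers with a value were all called lower (1 after quantile normalization and 0 with spike-in scaled values), with sums of 30.8 to 47.0 in control and 9.52 to 12.7 in KD, and *Gata4* and *Sox17* among them were in that range of mean. Of the 4 fibroblast markers 3 were called lower, also with spike-in scaled values and after quantile normalization, with sums of 43.8 to 57.8 and 12.1 to 13.9, and *Col1a2* and *Col3a1* were in that range. For mesoderm and primitive streak (2 of 4 with a value) the sums were 14.3 to 19.8 and 7.48 to 11.9, and for trophectoderm (3 of 4) 47.4 to 55.9 and 34.1 to 37.5. In the former 1 gene was called lower (*Mesp1*) and in the latter 2 (*Cdx2* and *Gata3*, both in that range). With spike-in scaled values or after quantile normalization 0 of either list were called. The neural list (5 of 5) summed to 83.7 to 107 in control and 145 to 155 in KD, with 2 of its genes called lower and 1 higher. Only *Tubb3* among them went up (mean 33.6 in control and 108 in KD). The other 4 had a log2 fold change below 0, and the median of the list was -0.96. *T*, *Mixl1*, *Foxa2* and *Elf5* had no row. In bulk RNA, fewer cells of a type and less RNA per cell cannot be told apart, and the part of these markers in the *Hox* results was not tested.

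*Hox* genes were listed less widely than other protein-coding genes. Values per library exist for 7 of the 38 (18.4%), against 65.6% of 21432 protein-coding genes. They are *Hoxb4*, *Hoxb7*, *Hoxb9*, *Hoxb13*, *Hoxc12*, *Hoxc13* and *Hoxd13*. By cluster these are 0 of 10 *Hoxa* genes, 4 of 10 *Hoxb* genes, 2 of 9 *Hoxc* genes and 1 of 9 *Hoxd* genes. By position, 5 of 16 posterior genes have a value, 2 of 15 central and 0 of 7 anterior. Each gene of the file is above 1 in at least 4 of the 8 libraries. *Hoxb7* met this through the control libraries, since a single KD library exceeded 1, while the other 6 genes were above 1 in all 8.

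The table of NPCs and mESCs lists 12 *Hox* genes (31.6%), against 63.0% of protein-coding genes. Of these, 7 have no values in the control and KD libraries, namely *Hoxa2*, *Hoxa3*, *Hoxa5*, *Hoxa7*, *Hoxc5*, *Hoxd8* and *Hoxd9*, which are 2 anterior, 4 central and 1 posterior gene. *Hoxb7* and *Hoxc12* are the reverse case, with values per library but no row for NPCs. The authors' mean level in that table, on a log2 scale over all libraries of the comparison, was highest for *Hoxb9* (4.01), *Hoxc13* (3.93) and *Hoxb4* (2.80), and *Hoxd13* (0.99) and *Hoxb13* (0.98) were near the lower end. The 7 genes listed there and not among the values per library had the authors' means of 1.99 (*Hoxa5*), 1.40 (*Hoxc5*), 1.27 (*Hoxd8*), 1.24 (*Hoxa3*), 1.22 (*Hoxa2*), 1.20 (*Hoxa7*) and 0.32 (*Hoxd9*). These means pool NPCs and mESCs and have no error, so they rank genes within the table and give no change.

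The authors' table of *Ssrp1* KD lists 6 of the 7 genes and leaves out *Hoxb7*. Its means, again the authors' and over all libraries, ran from 3.89 for *Hoxc13* through 2.37 for *Hoxb9* down to 0.57 for *Hoxc12*. *Hoxd13* (1.26), *Hoxb13* (1.19) and *Hoxb4* (0.95) lay between. The tables were normalised apart, so levels were not compared across them.

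In the chromatin RNA libraries *Hox* transcripts were rare and lay mostly at the posterior end. A total of 76 counts in replicate 1 (of 3441643) and 65 in replicate 2 (of 3393923) fell on exons of the 38 genes. At least 1 count was seen for 28 of them (73.7%), close to the 72.5% of all protein-coding genes. The median protein-coding gene had 2 and 3 counts, and the median *Hox* gene 1 and 1. Protein-coding genes together held 5.56% of all counts in replicate 1 and 9.35% in replicate 2. Levels scaled to the library total are therefore low for any such gene, and the 2 libraries differ in this share. A count of 0 allows up to 3 counts, or 0.872 and 0.884 CPM (counts scaled to the library total) in the 2 libraries. Intervals and limits here cover counting error only, and the 2 libraries differed more than counting error allows (chi-square per degree of freedom 18.4 over all genes).

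Of the 10 genes at 0 in both libraries, 3 were anterior (*Hoxa3*, *Hoxb1*, *Hoxd1*), 5 central (*Hoxa5*, *Hoxa6*, *Hoxc4*, *Hoxc5*, *Hoxd4*) and 2 posterior (*Hoxb13*, *Hoxd10*). More than 3 counts in both libraries were found for *Hoxa10* (11 and 8), *Hoxa13* (5 and 5) and *Hoxb9* (5 and 5). These 3 are all posterior genes. Of them only *Hoxb9*, a patterning gene of the thoracic skeleton, has values per library or a peak.

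In RPKM, which is CPM per kilobase of exon, the 5 highest means of the 2 libraries were those of *Hoxd11* (1.29), *Hoxc12* (1.21), *Hoxa13* (1.11), *Hoxa10* (0.884) and *Hoxd9* (0.628). *Hoxd11* rested on 1 library, with 9 counts and 0. *Hoxc12* had 5 and 2 counts on the shortest exons among the 7 genes with values per library (843 bp), and *Hoxd9* had 3 and 6. *Hoxc13* had 1 and 5 counts, *Hoxb4* 2 and 4, *Hoxb7* 0 and 1, and *Hoxd13* 1 and 3. The 7 genes together had 0.299 (95% exact Poisson interval 0.163 to 0.502) and 0.433 (0.265 to 0.669) RPKM in the 2 libraries, and the other 31 had 0.291 (0.223 to 0.373) and 0.214 (0.156 to 0.286), with overlapping intervals in both.

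Totals differed more by position than by cluster. Posterior genes together had 45 and 49 counts, or 0.426 (0.311 to 0.570) and 0.470 (0.348 to 0.622) RPKM. The 7 anterior genes had 5 and 4 counts, or 0.0885 (0.0287 to 0.207) and 0.0718 (0.0196 to 0.184), below the posterior interval in both libraries. Central genes, with 26 and 12 counts, were at 0.266 (0.174 to 0.390) in replicate 1, where their interval overlapped that of the posterior genes, and at 0.124 (0.0643 to 0.217) in replicate 2, where it did not. *Hoxa10* alone gave 11 and 8 of the posterior counts. These intervals cover counting error only, which the 2 libraries exceeded (chi-square per degree of freedom 18.4), and the difference between positions was not tested.

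Among the clusters, *Hoxa* gave 0.317 (0.196 to 0.485) and 0.413 (0.272 to 0.601) RPKM. *Hoxb* gave 0.302 and 0.181, *Hoxc* 0.247 and 0.250, and *Hoxd* 0.296 and 0.174. The intervals of all 4 clusters overlapped in both libraries. Exons of *Hoxa3* and *Hoxa11* share 515 and 525 bases with genes on the opposite strand, and the strand setting of the counting was not stated in the sources at hand, so reads of the strands cannot be told apart there.

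**Figure D1:**
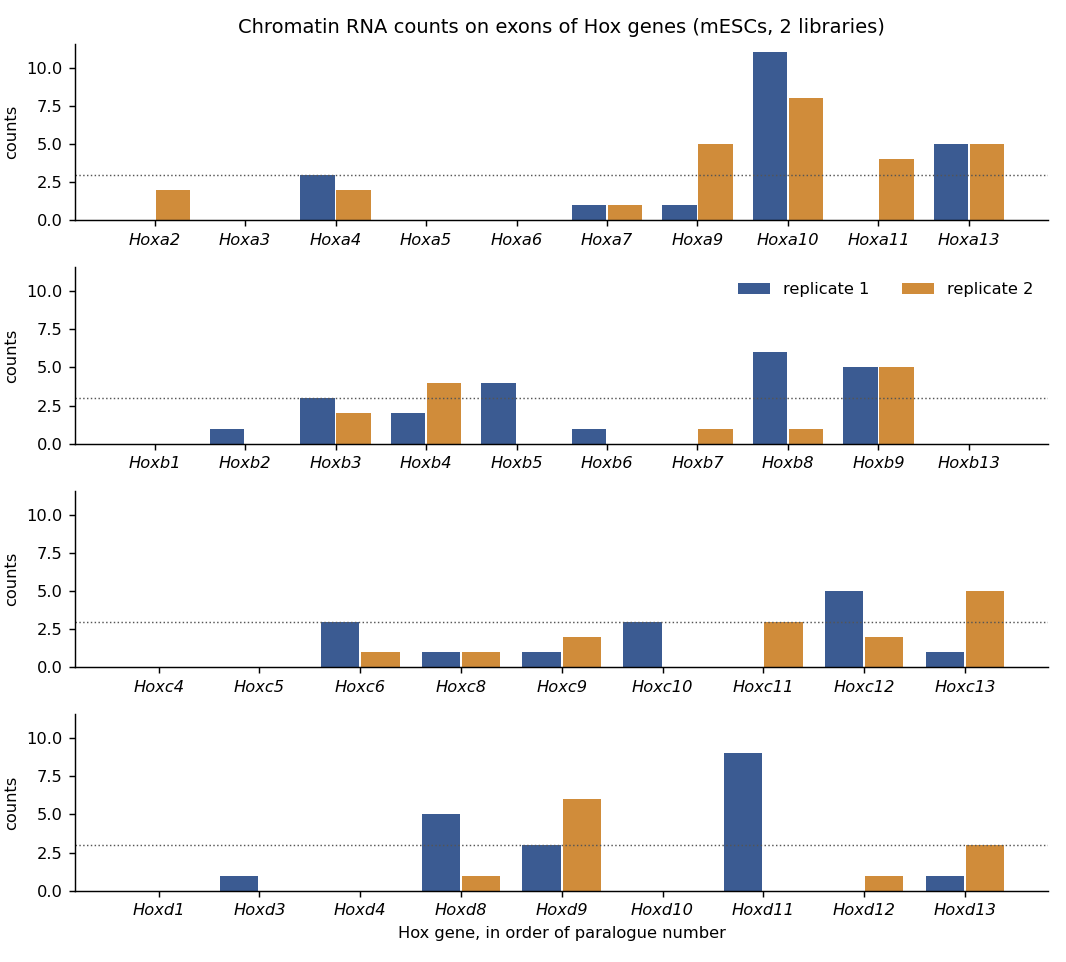
Bars give the chromatin RNA counts of each Hox gene in the 2 libraries, by cluster (panels, in order of paralogue number), and the dotted line marks 3 counts. Hoxa10, Hoxa13 and Hoxb9 exceed the line in both libraries, and Hoxd11 has 9 counts in replicate 1 and 0 in replicate 2.

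The levels of the 7 genes with values per library were low. Their means in control ran from 2.76 to 13.4 on the library-size scale, against a median of 22.2 over all genes. Per kilobase of exon, *Hoxc13* (5.53 ± 1.81, SD, n = 4) was highest and *Hoxd13* (1.64 ± 0.412) lowest. Between them lay *Hoxc12* (3.27), *Hoxb13* (3.00), *Hoxb7* (2.96), *Hoxb9* (2.33) and *Hoxb4* (2.13). Each neighbouring pair in this order overlapped in its control libraries, and pairs further apart were not compared.

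Under *Ssrp1* KD, *Hoxb4*, *Hoxb7* and *Hoxc13* fell and none of the 7 genes rose. Without *Hoxb7*, which is listed through its control libraries, 2 of 6 fell. The 3 genes that fell are 42.9% of the 7, whereas 20.6% of all 15384 genes were called lower and 8.07% higher (limma with Benjamini-Hochberg adjustment, absolute log2 fold change above 1, adjusted p below 0.01). At an unadjusted p below 0.05, 5 were lower and 0 higher, and edgeR and DESeq2 on recovered reads also called 3 lower and 0 higher. A log2 fold change below 0 was found for 6 of the 7 and for 51.6% of all genes. Among 3925 genes whose mean over the 8 libraries was in the range of the *Hox* genes (2.32 to 9.38), 50.8% were called lower and 2.11% higher, with a median log2 fold change of -1.01. The *Hox* median was -0.76 and that of all genes -0.03. The direction depended on the scaling. With spike-in scaled values 0 of the 7 were called, with 2 lower and 1 higher at an unadjusted p below 0.05, and with quantile normalization *Hoxc12* alone was called, as higher. Over all genes 1082 were called lower and 7394 higher with spike-in scaled values.

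*Hoxb4* (chromosome 11, 96318267 to 96321638 of mm10, plus strand), a central gene known from blood stem cells, had 5.31, 4.13, 6.10 and 6.29 in the control libraries, given here and for each gene in the order of replicates 1 to 4. In the KD libraries it had 2.22, 1.82, 1.04 and 1.10. All KD libraries lay below all control libraries, on 24 to 46 reads in control and 16 to 31 in KD. The mean was 5.46 ± 0.981 (SD, n = 4) in control and 1.54 ± 0.575 in KD. It fell by 1.57 ± 0.24 (standard error) on the log2 scale (limma, adjusted p = 1.18e-06). The log2 fold change was -0.72 with spike-in scaled values, where the median of all genes was 0.95, and -0.44 with quantile normalization, neither of them past the thresholds. The 250 bases before its start are shown because *Hoxb4* is the gene among those that fell with a RefSeq promoter entry (GRCm38.p6, chr11:96318017-96318266, plus strand, CpG in capitals).
Hoxb4 promoter: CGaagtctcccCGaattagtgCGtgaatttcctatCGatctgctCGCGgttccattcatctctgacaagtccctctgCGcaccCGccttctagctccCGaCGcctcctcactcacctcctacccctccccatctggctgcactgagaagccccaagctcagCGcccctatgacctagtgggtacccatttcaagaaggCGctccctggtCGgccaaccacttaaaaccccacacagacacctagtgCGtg

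This stretch holds 14 CpG. RefSeq promoter windows of 300 bases (250 before and 50 after the start) were matched for 22 of the 38 genes, 24 windows in all. Their median was 4.83 CpG per 100 bases (1.33 to 15.0), against 2.33 over 32851 windows of all genes. The hexamer AGGTCA, the core of retinoic acid receptor motifs, was found on either strand in 7 of 24 windows (29.2%), the *Hoxb4* window included, and in 16.3% of all windows. The word TATAAA was found in 4 (16.7%) and in 13.62% of all. None of the *Hox* windows held 2 copies of AGGTCA in direct repeat with 5 bases between them. Only 3 of all 32851 windows did, so none was likely in 24. These are matches of letters and not binding sites.

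*Hoxb7* (chromosome 11, 96286646 to 96290163, plus strand), a central gene of the same cluster, had 2.04, 4.13, 6.10 and 2.74 in control and 1.36, 0.645, 0.648 and 0.870 in KD. Each KD library lay below each control library, but on 10 to 15 reads in KD and 15 to 34 in control. The fold change was -1.56 ± 0.30 (log2, limma, adjusted p = 3.13e-05), and -0.95 with a pseudocount of 2, short of the fold threshold. With spike-in scaled values it was -0.80 and with quantile normalization -0.57.

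*Hoxc13* (chromosome 15, 102921131 to 102928814, plus strand), the posterior gene of hair and nail keratinocytes, had 16.2, 12.0, 7.89 and 17.6 in control and 6.55, 5.80, 5.18 and 3.71 in KD. The groups did not overlap, and control replicate 3 came closest to the KD libraries. It fell by 1.23 ± 0.20 on the log2 scale (limma, adjusted p = 2.93e-06), and the log2 fold change was -0.27 and -0.54 with spike-in scaled values and quantile normalization.

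The other 4 genes, all posterior, did not pass both thresholds. *Hoxb9* had 5.17, 6.02, 8.07 and 5.88 in control and 4.70, 3.22, 2.78 and 3.36 in KD, without overlap. Its log2 fold change of -0.76 (95% interval -1.17 to -0.36, limma, adjusted p = 0.00102) was past the adjusted p and short of the fold threshold. *Hoxd13*, the gene of the digits, had 3.27, 5.51, 4.13 and 3.42 in control and 2.47, 2.99, 1.81 and 2.26 in KD, also without overlap. Its log2 fold change was -0.66 (interval -1.12 to -0.19, limma, adjusted p = 0.00995), and it lost the adjusted p threshold in 6 of 8 fits with a library left out (highest adjusted p = 0.0465, without control replicate 2).

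*Hoxb13*, a gene of the tail and prostate, had 3.54, 3.44, 5.38 and 3.42 in control and 3.95, 2.99, 1.94 and 2.32 in KD. Here the groups overlapped, and the log2 fold change was -0.44 (interval -0.92 to 0.03, limma, adjusted p = 0.0797). *Hoxc12* had 2.99, 2.75, 3.23 and 2.05 in control and 3.83, 2.35, 2.53 and 2.67 in KD. KD replicate 1 was the highest and control replicate 4 the lowest of the 8 libraries, and the log2 fold change was 0.03 (interval -0.44 to 0.51, limma, adjusted p = 0.904). With quantile normalization it was 1.10, and with spike-in scaled values 0.90.

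**Figure D2:**
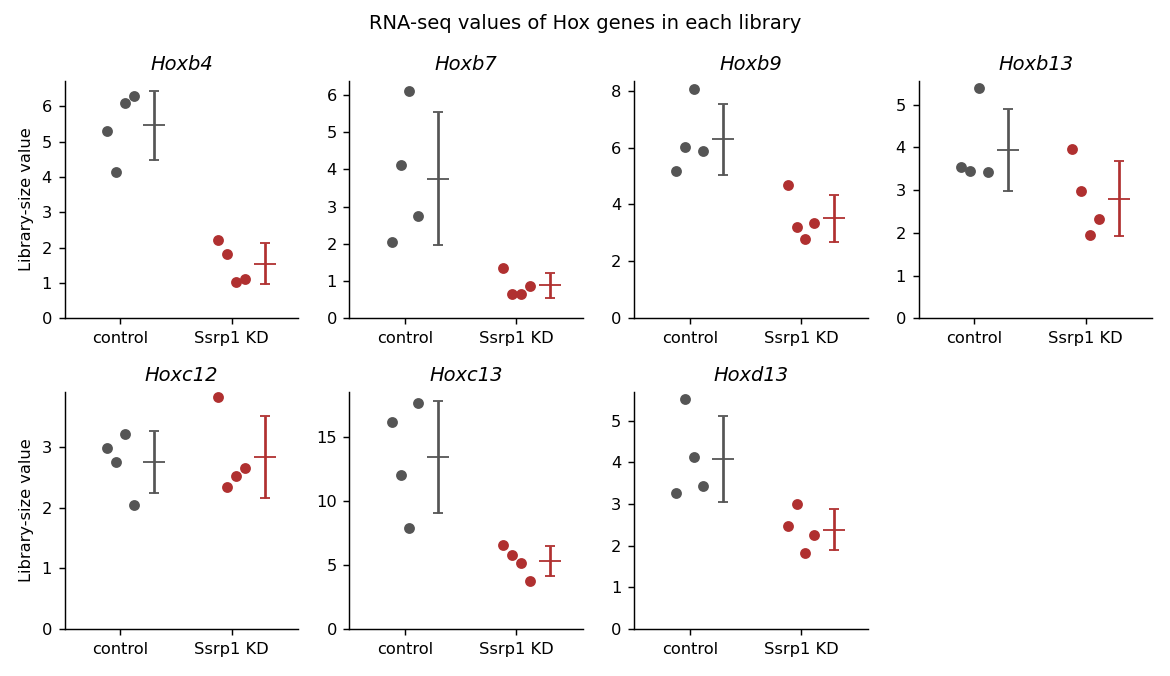
Points give the library-size value of each Hox gene in the 4 control and 4 Ssrp1 KD libraries, and the bar beside them the mean and SD. In 5 of the 7 panels every KD point is below every control point, and in those of Hoxb13 and Hoxc12 the groups overlap.

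In all, 5 of the 7 genes had every KD library below every control library (71.4%), against 37.5% of all genes and 67.2% of those in the same range of mean value. For each of the 5 the exact permutation test (two-sided, 4 against 4) gave p = 0.0286, the smallest it can give, and for *Hoxb13* and *Hoxc12* it gave p = 0.143 and p = 0.857. *Hoxb7* is among the 5. Its listing through control favoured a lower KD value, so neither its lack of overlap nor its permutation p can count as a test. With each library left out in turn, 3 genes were called every time, *Hoxb7* among them.

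By position, both central genes fell, with log2 fold changes of -1.57 and -1.56. Without *Hoxb7*, whose listing through control favoured a lower KD value, the central class is 1 gene. Of the 5 posterior genes 1 fell, with a median of -0.66 and a range from -1.23 to 0.03. By cluster, 2 of 4 *Hoxb* genes, 1 of 2 *Hoxc* genes and 0 of 1 *Hoxd* gene fell. Shares called lower were 20.6% over all genes and 50.8% among those in the same range of mean value. With 1 or 2 genes in most of these classes, the difference between positions or clusters was not tested. The exons of the 7 genes add up to 843 to 2701 bp, against a median of 2690 bp over all genes. With a correction for exon length 3 of them were called lower.

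**Figure D3:**
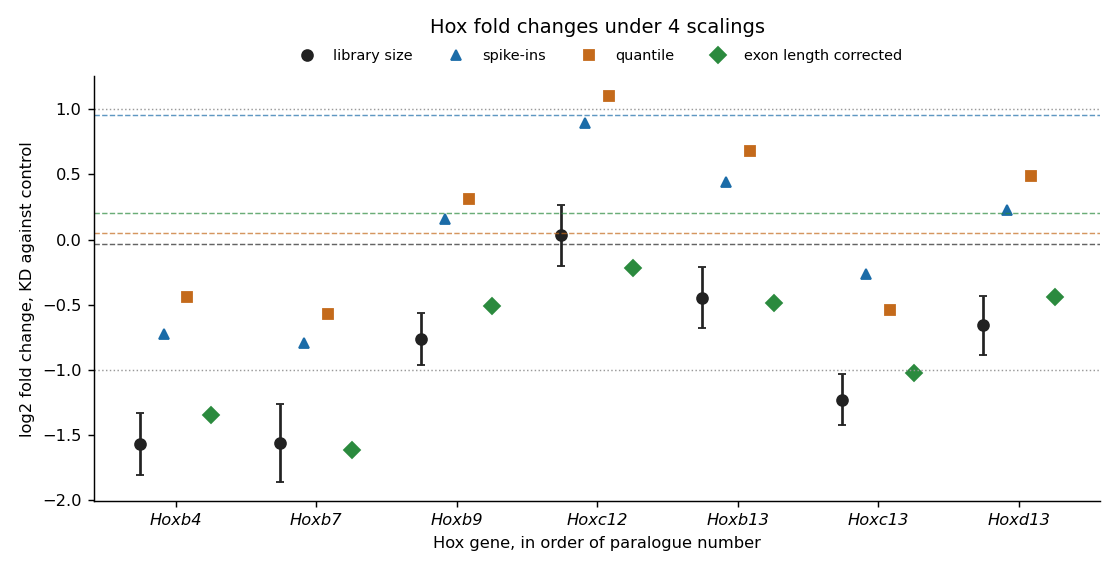
The log2 fold change of each gene (y axis) is drawn under 4 scalings, in order of paralogue number, with the standard error on the library-size values, dotted lines at the fold threshold and dashed lines at the median of all genes under each scaling. Hoxb4, Hoxb7 and Hoxc13 lie below 0 under each scaling, while Hoxb9, Hoxb13 and Hoxd13 lie above 0 with spike-in scaled values and quantile normalization.

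Relative to the median of all genes (0.95 with spike-ins, 0.05 with quantile normalization), all 7 genes lay below it on the spike-in scale and 3 of 7 after quantile normalization. The 3 that lay below 0 in both were *Hoxb4*, *Hoxb7* and *Hoxc13*. *Hoxc12* came closest to the spike-in median, at 0.90, on spike-in means of 1.92 in control and 3.99 in KD. The 0.5 added to each value lowers the fold change of such a low gene, so its place below that median may rest on it. The share of other genes of like mean below the spike-in median was not counted, so the 7 cannot be set apart from them.

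FACT peaks were assigned to 8 of the 38 genes. A SSRP1 peak was assigned to 7 (18.4%), against 27.7% of protein-coding genes, and a SUPT16 peak to 2 (5.26%), against 13.4%. *Hoxb9* had a peak of each subunit. SSRP1 peaks went to *Hoxa2*, to *Hoxb9*, to *Hoxc8*, *Hoxc10*, *Hoxc12* and *Hoxc13*, and to *Hoxd4*. SUPT16 peaks went to *Hoxb9* and *Hoxb13*. The *Hoxc* cluster thus had 4 genes with a SSRP1 peak and 0 with a SUPT16 peak. The authors' lists give positions and the nearest gene and no heights, so neither depth nor spread between replicates is known.

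At *Hoxb9* the subunits coincided. The SSRP1 peak ran over chr11:96270889-96271672 (784 bp) and the SUPT16 peak over chr11:96270931-96271910 (980 bp), and 742 bp were shared. Both covered the start of the gene at 96271330. They held 7.53 and 8.88 CpG per 100 bases, the highest densities among the *Hox* peaks. Between the outermost genes described in each of the 4 clusters, this was the only place where peaks of the subunits overlapped.

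Among the other peaks assigned to *Hox* genes, those of *Hoxc10* and *Hoxb13* were nearest to a start. The SSRP1 peak of *Hoxc10*, a gene of the lumbar segments, ran over chr15:102966445-102967130 (686 bp) and covered the start at 102966796. The SUPT16 peak of *Hoxb13* (chr11:96193651-96193860) ended 501 bp before the start, and its 210 bp were the least length found in that list.

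The other SSRP1 peaks were more distant. That assigned to *Hoxd4* began 1063 bp downstream of its start, and those of *Hoxc12*, *Hoxc8* and *Hoxc13* lay beyond the end of their genes, 3034, 5208 and 10720 bp from the start. The last of these was nearer to the start of *Hoxc12* (4415 bp). The SSRP1 peak assigned to *Hoxa2* lay 7920 bp upstream of it, inside *Hoxa3*. Within 1000 bp of a gene body, SSRP1 peaks were found at 5 genes (*Hoxa3*, *Hoxb9*, *Hoxc10*, *Hoxd3* and *Hoxd4*) and SUPT16 peaks at 4 (*Hoxa3*, *Hoxa5*, *Hoxb9* and *Hoxb13*).

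The SSRP1 peaks at *Hoxd4* and inside *Hoxa3* are shown because they lie in introns of anterior or central genes without values per library. They are printed without the 3 and 19 bases that are exonic, on the strand of *Hoxd4* (chr2:74723041-74723331, plus, 291 bases) and of *Hoxa2* and *Hoxa3* (chr6:52172770-52173044, minus, 275 bases), from GRCm38, with CpG in capitals.
Hoxd4 SSRP1 peak: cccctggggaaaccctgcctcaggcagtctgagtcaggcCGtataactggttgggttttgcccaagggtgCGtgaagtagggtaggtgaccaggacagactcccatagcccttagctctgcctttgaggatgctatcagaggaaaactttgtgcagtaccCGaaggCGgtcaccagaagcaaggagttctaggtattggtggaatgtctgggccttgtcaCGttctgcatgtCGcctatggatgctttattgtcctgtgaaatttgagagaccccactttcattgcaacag
Hoxa2 SSRP1 peak: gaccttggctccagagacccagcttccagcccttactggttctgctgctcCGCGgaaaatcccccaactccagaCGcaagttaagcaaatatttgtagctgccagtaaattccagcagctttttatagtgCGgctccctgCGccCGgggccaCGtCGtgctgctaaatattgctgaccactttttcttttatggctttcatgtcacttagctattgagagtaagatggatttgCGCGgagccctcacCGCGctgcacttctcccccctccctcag

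The first stretch held 6 CpG and the second 12. Over the 7 SSRP1 peaks assigned to these *Hox* genes the median was 5.10 CpG per 100 bases (0.850 to 7.53), against 2.81 over all 10114 SSRP1 peaks. The 2 SUPT16 peaks held 2.86 and 8.88, against a median of 5.71 over 3855.

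**Figure D4:**
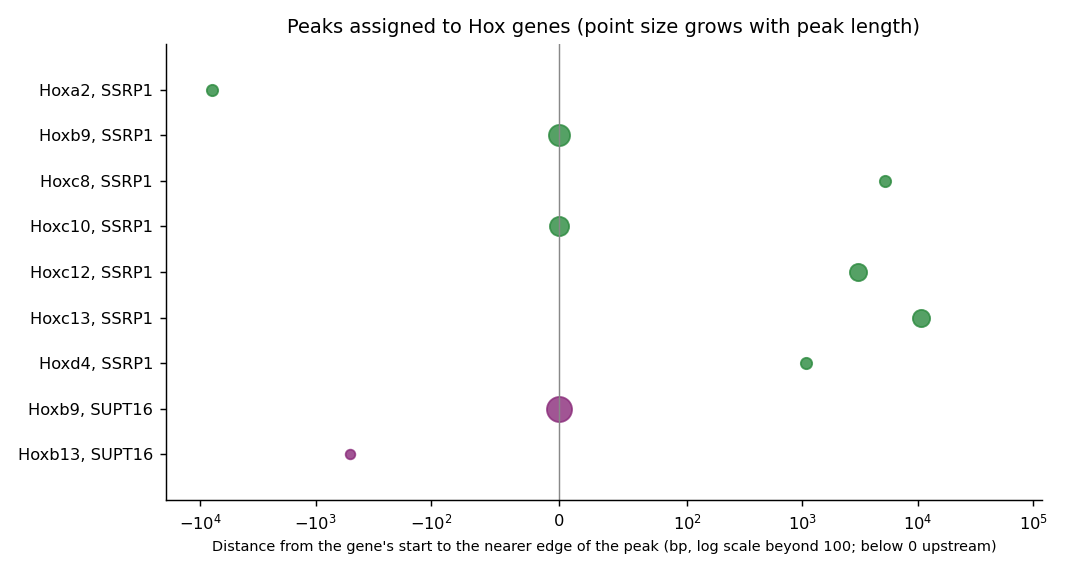
Each point is a peak assigned to a Hox gene, placed by the distance from the start of the gene to its nearer edge (x axis, log scale beyond 100 bp, negative upstream), with SSRP1 in green and SUPT16 in purple. Peaks at Hoxb9 (both subunits) and Hoxc10 cover the start, and the SSRP1 peak of Hoxc13 lies 10720 bp away.

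The stretches between the outermost ends of the genes described span 98.4 kb (*Hoxa*), 174 kb (*Hoxb*), 116 kb (*Hoxc*) and 96.8 kb (*Hoxd*). SSRP1 peaks covered 0.299% of *Hoxa*, 1.01% of *Hoxb*, 1.86% of *Hoxc* and 0.304% of *Hoxd*. SUPT16 peaks covered 0.213% of *Hoxa* and 0.684% of *Hoxb*, and none lay in *Hoxc* or *Hoxd*. Peaks inside these stretches that were assigned to other genes were a SSRP1 peak of 980 bp 78 bp from the start of *Gm53*, between *Hoxb13* and *Hoxb9*, a SUPT16 peak of 210 bp 5075 bp upstream of *Mir10a*, and a SUPT16 peak of 210 bp overlapping *Hoxa5*, 757 bp from its start.

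Of the 7 genes with values per library, 3 had a SSRP1 peak, against 36.0% of all genes with values, and 2 a SUPT16 peak, against 18.6%. Among the 4 with a peak of either subunit, 1 fell under KD (*Hoxc13*). Among the 3 without, 2 fell (*Hoxb4*, *Hoxb7*), or 1 of 2 without *Hoxb7*. For comparison, 20.6% of all genes were called lower, and 50.8% of those in the range of mean of the *Hox* genes. With peaks counted within 1000 bp of the gene body instead, 0 of 2 genes with a peak (*Hoxb9*, *Hoxb13*) and 3 of 5 without fell, *Hoxb7* among the 3. The counts depend on how peaks are assigned, while the smaller share lay with the genes that have a peak both times. With so few genes the difference was not tested. For the 2 genes with a peak within 1000 bp, 1 was lower at an unadjusted p below 0.05, and 0 were called by edgeR or DESeq2. *Hoxb9*, where both subunits covered the start, had the log2 fold change of -0.76 given above. Peaks were also assigned to *Hoxa2*, *Hoxc8*, *Hoxc10* and *Hoxd4*, which have no values per library.

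The partners of HOX proteins on DNA, the PBX, MEIS and PKNOX homeodomain proteins, were all measured. Of the 9 genes, 3 fell and 0 rose (2 were higher at an unadjusted p below 0.05, and 0 were called higher by edgeR or DESeq2), with a median log2 fold change of -0.64. Over all genes 20.6% were called lower. Those that fell were *Meis3* (-1.89), *Meis1* (-1.85) and *Pknox2* (-1.74), all with a mean in the range in which 50.8% of genes were called lower. *Meis1* went from 12.3 ± 3.44 (SD, n = 4) in control to 3.03 ± 0.785 in KD (limma, adjusted p = 2.62e-09). After quantile normalization *Meis3* and *Meis1* were still called, and with spike-in scaled values 0 were called lower and 3 higher. On the spike-in scale 1082 of all 15384 genes were called lower and 7394 higher.

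Of 14 regulators in the RA and *Cdx* pathway, 11 had values, 2 fell and 1 rose, against 20.6% and 8.07% of all genes. Both that fell had a mean in the range in which 50.8% were called lower. *Rarb*, a RA receptor that RA itself induces, fell from 7.01 ± 0.982 to 1.34 ± 0.505 (log2 fold change -2.06, limma, adjusted p = 5.65e-09). *Cdx2*, a direct activator of central *Hox* genes, fell by 1.62 on the log2 scale. *Crabp1*, which binds RA in the cytoplasm, rose from 5.69 ± 0.780 to 15.7 ± 1.57 (log2 fold change 1.39, and 2.07 with quantile normalization). The median of the list was -0.26. After quantile normalization 1 gene of the list was called lower (*Rarb*) and 1 higher. With spike-in scaled values these counts were 1 and 4, against 1082 and 7394 of all 15384 genes.

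Among 21 Polycomb and trithorax genes, 1 fell and 1 rose, against 20.6% and 8.07% of all genes, with a median log2 fold change of 0.24. *Kmt2a*, the trithorax methyltransferase that keeps *Hox* genes active, fell from 135 ± 6.53 to 47.4 ± 3.34 (log2 fold change -1.50, limma, adjusted p = 2.65e-17). It was -1.83 with quantile normalization and -0.48 with spike-in scaled values. *Mtf2*, a Polycomb subunit, rose by a log2 fold change of 1.02, which was 0.33 with quantile normalization. With spike-in scaled values 14 of the 21 were called higher and 0 lower, against 7394 and 1082 of all 15384 genes.

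Of 23 genes beside the clusters, 17 had values, 4 rose and 0 fell (1 was lower at an unadjusted p below 0.05, and 0 were called lower by edgeR or DESeq2), with a median log2 fold change of 0.63. Over all genes 8.07% were called higher and 20.6% lower. Those that rose were *Cbx1* (1.51), *Skap2* (1.33), *Hnrnpa1* (1.15) and *Calcoco2* (1.06), of which *Cbx1* and *Skap2* were also called after quantile normalization. With spike-in scaled values 16 of the 17 were called higher, against 7394 of all 15384 genes. *Cbx1*, near *Hoxb*, had 41.98 ± 3.14 in control and 120 ± 5.15 in KD, well above the *Hox* range. *Evx1* and *Evx2*, the homeobox genes at the posterior ends of *Hoxa* and *Hoxd*, had no values per library, with 0 and 0 and with 0 and 4 chromatin RNA counts.

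Of 16 RNAs inside the clusters, antisense transcripts and miRNAs among them, 11 were in the chromatin RNA table and 1 had values, *Mir196a-1*, with a log2 fold change of 0.15 (limma, adjusted p = 0.640). After quantile normalization it was 1.08 and called higher. The other 10 had 0 counts in both chromatin libraries. The 3 ParaHox genes, an ancient sister set of the *Hox* genes, had no values per library. On chromatin *Gsx1* had 18 and 21 counts, more than any *Hox* gene, while *Gsx2* had 1 and 0 and *Pdx1* 0 and 0.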

How the data were processed

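RNA-seq reads were aligned by the authors to mm10 with STAR, counted with featureCounts, and deposited as a signal per gene and library, scaled to library size or to spike-ins. Chromatin RNA counts were deposited raw. From the authors' limma tables only the deposited log2 average expression was used, and their fold changes, statistics and p-values were left aside. PePr peaks of each subunit, called by the authors over all replicates, were deposited with the nearest gene from ChIP-Enrich.

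The limma 3.58.1 trend test was run on log2(value + 0.5). A fold change on this scale understates the change of low genes. Whole reads were recovered for edgeR 4.0.16 and DESeq2 1.42.0. Other alternatives were pseudocounts of 0.1 and 2, a mean of at least 5, TMM, spike-in and quantile scaling, a loess correction for exon length, the replicate number as a block, and leaving out single libraries. The fits were tested on simulated data. R 4.3.3, Python 3.11.15 and scipy 1.17.1 were used. The study's methods call the 4 libraries of a group biological replicates and do not say whether each had its own transfection.

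One *Hox* gene is not reported here, and the counts leave it out. Named were, by rule, every *Hox* gene with values, a peak, or a chromatin level among the 5 highest or at 0, and up to 3 members a list (the list of neighbours is given with all 4 that were called). Members and lists were chosen with earlier results of these data known. MNase-seq, ATAC-seq, NET-seq and exon usage were not used here. Coordinates are 1-based.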

Additional observations from a re-analysis of the deposited data

Results flagged for a closer look

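The value of *Hoxb13* in control replicate 3, 5.38, stood apart from the other 3 control libraries (3.42 to 3.54), with a gap of 0.939 of the range of the group. This was 1 flag in 14 groups of 4 libraries, and chance flags about 1 group in 20. Without control replicate 3 the log2 fold change of *Hoxb13* was -0.30, against -0.44 with it, and in neither case past the thresholds.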

How the results depend on the processing

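Of 120 alternative fold changes of the 7 *Hox* genes, 103 kept their direction and side of the thresholds, 8 changed side and 9 changed sign. The cause was not tested. Of the 7 genes 3 were called, but 5 by the adjusted p alone, 1 of 1 left with a mean of at least 5 (*Hoxc13*), 0 with spike-in scaled values and 1, as higher, with quantile normalization. These scalings turned *Hoxb9* to 0.16 and 0.31, *Hoxb13* to 0.44 and 0.68, and *Hoxd13* to 0.23 and 0.49. *Hoxc12*, near 0, turned to -0.22 with the length correction and ran from -0.10 to 0.10 with a library left out. Over all genes 4405 were called (71.8% of them lower), 8476 with spike-ins (12.8% lower), 3174 with quantile normalization (52.2% lower) and 11192 by the adjusted p alone. Of the listed genes 12 were called, and 38 with spike-ins. With a library left out these counts were 4254 to 4635 and 11 to 14, and 3 for the *Hox* genes.

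The replicate block gave 4405, 3 and 12. The replicate numbers did not pair the libraries, as deviations of same-numbered libraries correlated by -0.06 to 0.02, and it changed no call of a *Hox* gene.

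Scaled to protein-coding counts, the chromatin RNA level in RPKM was 5.06 (*Hoxa*), 3.69 (*Hoxb*), 3.56 (*Hoxc*) and 3.59 (*Hoxd*), and without length 7.03, 5.11, 4.10 and 4.38 CPM, against 0.365, 0.242, 0.248 and 0.235 RPKM as means of the 2 libraries. With peaks of at least 500 bp, 4 genes had a SSRP1 and 1 a SUPT16 peak. Within 1000 bp of the gene body, also with 50% of the peak there, 5 and 4 did, in place of 7 and 2. Low depth on chromatin (most *Hox* genes at 3 counts or fewer) limits comparisons of single genes.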
